A study of Mus musculus with 10 samples.

Results

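Klrb1c and 6 other C-type lectin genes of the natural killer (NK) gene complex were examined, the receptor genes Klrb1f, Klrd1 and Klrk1 and the ligand family genes Clec2d, Clec2g and Clec2i. They are 7 of the 55573 genes in the count table, all 7 were matched by Ensembl ID, and they were chosen by name with the measured difference between the groups already known. The study compared B cells of mouse bone marrow that retained a GFP-tagged histone H2B with those that had lost it. The tagged histone is diluted at each division, so the label reads how much a cell has divided. All 10 libraries came from the genotype given as PAX5-ELN H2B-GFP, with doxycycline as the treatment and 35 days as the time. PAX5-ELN is a fusion of the B-lineage factor gene PAX5 with the elastin gene. The 5 GFP high libraries carry the phenotype quiescent and the 5 GFP low libraries proliferating. Cells without the fusion were not analysed here. The labels used here do not give strain, age or sex, the promoter of the transgenes or whether the 10 libraries stand for 10 animals. P-values therefore cover the spread among these libraries, part of which may be technical.

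NK receptors of the lectin superfamily are type II membrane proteins that let NK cells read ligands on other cells. The NKR-P1 receptors, encoded by the Klrb1 genes, include several that bind proteins of the CLEC2 family, whose genes lie interspersed with theirs in the same cluster, while CD94 and NKG2D bind relatives of class I histocompatibility molecules. Klrb1c encodes NKR-P1C, the antigen recognised by the NK1.1 antibody in some mouse strains and commonly used to sort NK cells, and it signals through the adaptor encoded by Fcer1g.

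The 7 genes lie on chromosome 6 within 845 kb (GRCm38, GENCODE M21), and all are annotated as protein coding. In order along the chromosome they are Klrb1c (ENSMUSG00000030325, 128778485 to 128789215, minus strand), Clec2i (ENSMUSG00000030365, 128887588 to 128898167), Clec2g (ENSMUSG00000000248, 128934381 to 128984707), Klrb1f (ENSMUSG00000030154, 129045901 to 129057464), Clec2d (ENSMUSG00000030157, 129180615 to 129186534), Klrd1 (ENSMUSG00000030165, 129591782 to 129598775) and Klrk1 (ENSMUSG00000030149, 129610323 to 129623864, minus strand), with the other 5 on the plus strand. Klrb1c shares 413 exon bases with the predicted gene Gm44511 on the same strand, which had 0 counts in all 10 libraries. Of the 75-base windows of its transcripts, 13.2% also occur in another gene, and 11.4% in Gm44511. In Clec2i 0.875% of windows also occur in Clec2h, and in the other 5 genes 0%.

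Promoters of 6 of the 7 genes were matched in RefSeq (GRCm38.p6), from 250 bases before to 50 bases after the start. The RefSeq start of Klrb1c lies 574 bases inside the gene span given above, whose outer end is the start of another transcript. Clec2i has 2 RefSeq promoters, of which the one shown starts 1 base before the span. Those of Klrb1c, Klrb1f and Clec2i are shown because these are the receptor with the highest level, its relative among the genes examined, and the ligand gene whose groups did not overlap. Capitals mark matches on either strand to TTCNNNGAA (STAT), TGTTTAC (FOXO), TGTGGT (RUNX), CANCTG (E-box) and AGGAAG (ETS), and the sequences read 5′ to 3′ along each gene.
Klrb1c (chr6:128788592-128788891, minus strand): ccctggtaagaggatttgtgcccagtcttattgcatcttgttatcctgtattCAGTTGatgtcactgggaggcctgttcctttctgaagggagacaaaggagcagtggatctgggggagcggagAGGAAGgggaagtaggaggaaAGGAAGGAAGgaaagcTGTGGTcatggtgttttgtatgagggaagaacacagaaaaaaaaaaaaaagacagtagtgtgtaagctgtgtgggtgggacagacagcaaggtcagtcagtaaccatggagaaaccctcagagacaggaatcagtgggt
Klrb1f (chr6:129045651-129045950, plus strand): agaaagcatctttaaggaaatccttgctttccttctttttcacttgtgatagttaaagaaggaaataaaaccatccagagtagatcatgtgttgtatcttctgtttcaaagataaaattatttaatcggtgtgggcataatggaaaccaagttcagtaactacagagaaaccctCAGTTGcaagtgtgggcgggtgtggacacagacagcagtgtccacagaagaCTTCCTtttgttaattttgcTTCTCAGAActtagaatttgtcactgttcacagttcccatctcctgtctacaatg
Clec2i (chr6:128887337-128887636, plus strand): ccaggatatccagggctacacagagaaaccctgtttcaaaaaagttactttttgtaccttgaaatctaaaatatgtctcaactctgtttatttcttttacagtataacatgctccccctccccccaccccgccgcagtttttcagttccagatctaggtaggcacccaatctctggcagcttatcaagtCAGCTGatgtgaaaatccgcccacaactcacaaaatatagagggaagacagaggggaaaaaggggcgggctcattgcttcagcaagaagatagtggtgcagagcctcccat
The Klrb1c window holds AGGAAG 3 times, at -126, -105 and -101 from the first transcribed base counted as 0, the last 2 overlapping. It also holds TGTGGT at -89 and CAGTTG at -198. Of 32851 RefSeq promoters of this length, 35.4% hold AGGAAG at least 1 time and 1.90% at least 3 times. TGTGGT is in 16.8% and CANCTG in 51.4%. The Klrb1f window holds a match to the STAT letters, TTCTCAGAA at -5, which 8.30% of promoters have, and an E-box and an ETS match. The Clec2i window holds CAGCTG at -61 and no other of these letters. TGTTTAC, in 3.65% of all promoters, is in none of the 6 windows.

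Among these promoters the longest run shared by any pair is 22 bases, between Clec2d and Clec2g, and the next is 13. Both starts are shown, from -50 to 49, because 1 of these genes was read in every library and the other was almost unread. Capitals mark the shared run.
Clec2d (chr6:129180565-129180664, plus strand): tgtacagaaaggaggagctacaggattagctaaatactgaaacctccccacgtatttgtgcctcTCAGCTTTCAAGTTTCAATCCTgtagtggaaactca
Clec2g (chr6:128934331-128934430, plus strand): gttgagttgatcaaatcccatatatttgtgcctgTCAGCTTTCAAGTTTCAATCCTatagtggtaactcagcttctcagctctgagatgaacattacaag
The run begins 14 bases into the annotated transcript of Clec2d and at -16 in Clec2g, before its annotated start. These matches are letters in a window, and no binding was measured.

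Total counts were 10640894 to 14858520 per library, with 13838769 the highest in GFP high and 11347097 the lowest there. A count of 3, the limit that a count of 0 allows, corresponds to 0.202 to 0.282 CPM (counts scaled to library size) and covers counting error only. Low counts were mostly even, so a read pair may have been counted as 2, in which case the molecules behind a count are fewer and this limit is too low. Libraries numbered 1 to 3 stood apart from those numbered 4 and 5 on the second principal component (23.2% of variance), in both groups. The labels name no batch, and values within each set are given below. The B-cell label fits the reads by level, since the 13 B-lineage markers examined summed to 14623 to 17171 CPM in GFP high against 11690 to 13382 CPM in GFP low. All 13 had enough counts to be tested, but so had 8 of 10 monocyte and granulocyte markers. Being tested therefore does not bear on the label.

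Klrb1c had 311, 232, 185, 321 and 324 CPM in GFP high libraries 1 to 5 and 125, 62.6, 64.8, 165 and 118 CPM in GFP low libraries 1 to 5. The lowest GFP high library was above the highest GFP low library, so the groups did not overlap. The means were 274 ± 62.8 CPM and 107 ± 43.4 CPM (SD, n = 5 each). The log2 fold change, GFP high over GFP low, was 1.36 ± 0.26 (SE), a 2.56-fold higher level. In libraries of the same number the ratio was 2.49, 3.70, 2.85, 1.94 and 2.74, so that 5 of 5 pairs went the same way. These values describe a gene chosen for this difference, and no test is given for it or for the other 6, which were chosen in the same way. In bulk RNA, fewer cells of a type and less RNA per cell cannot be told apart.

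Behind these levels stood 2635 to 4265 Klrb1c counts per library in GFP high, against 669 to 2098 in GFP low. The spread within a group was larger in GFP low, with a coefficient of variation of 40.6% against 22.9%. In both groups libraries 1, 4 and 5 were above libraries 2 and 3. Replicates 1 to 3 alone gave a log2 fold change of 1.55 and replicates 4 and 5 alone 1.17. With the replicate number as a block the value was 1.42 ± 0.10, and leaving out 1 library at a time gave 1.21 to 1.58.

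Klrb1f encodes NKR-P1F, a receptor for the product of Clec2i. It had 4.74, 9.76, 3.86, 12.0 and 12.6 CPM in GFP high libraries 1 to 5 and 2.94, 3.96, 5.42, 4.72 and 6.16 CPM in GFP low. GFP high libraries 2, 4 and 5 were above all GFP low libraries, while libraries 1 and 3 lay within the GFP low range. The means were 8.60 ± 4.08 and 4.64 ± 1.25 CPM, and the log2 fold change was 0.89 ± 0.35. Of the 5 pairs 4 were higher in GFP high, and pair 3 was lower, at a ratio of 0.711. Libraries 1 to 3 alone gave 0.60 and libraries 4 and 5 alone 1.16.

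Klrd1 encodes CD94, which pairs with NKG2 chains to read the class I molecule Qa-1. GFP high libraries 1 to 5 held 24, 13, 9, 6 and 4 of its counts and GFP low libraries 54, 46, 18, 18 and 10, the fewest of the 5 tested lectins. In CPM these are 1.75, 1.13, 0.631, 0.467 and 0.346 against 3.87, 3.25, 1.74, 1.42 and 0.677. It was lower in GFP high in 5 of 5 pairs, though the groups overlapped, since libraries 1 and 2 had the most in both groups and library 5 the least. The log2 fold change was -1.33 ± 0.55, with means of 0.865 ± 0.578 CPM in GFP high against 2.19 ± 1.33 CPM in GFP low. It was -1.31 in replicates 1 to 3 alone, was below the count filter in replicates 4 and 5 alone, and ran from -1.72 without GFP high library 1 to -1.02 without GFP low library 1.

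Klrk1 encodes NKG2D, which can signal through the adaptor encoded by Hcst. It had 2 counts each in GFP high libraries 2 and 3 and 0 counts in the other 8 libraries. It did not enter the fit and no fold is given, since both groups were at or under the limit of 3 counts in every library.

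Clec2d encodes Clr-b, the ligand of the inhibitory receptor NKR-P1B. It had 11.8, 6.54, 6.66, 12.4 and 19.0 CPM in GFP high libraries 1 to 5 and 6.17, 4.67, 4.55, 11.6 and 8.06 CPM in GFP low. The groups overlapped, but each GFP high library was above the GFP low library of its number, by a ratio of 1.06 in pair 4 to 2.36 in pair 5. The means were 11.3 ± 5.14 and 7.02 ± 2.95 CPM and the log2 fold change was 0.68 ± 0.34, or 0.66 ± 0.20 with the replicate block. As for Klrb1c, libraries 1, 4 and 5 were above libraries 2 and 3 in both groups. Replicates 1 to 3 alone gave 0.72 and replicates 4 and 5 alone 0.66, and leaving out 1 library gave 0.42, without GFP high library 5, to 0.94, without GFP low library 4. Klrb1b, the gene of the receptor for Clr-b, had at most 1 count in any library.

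Clec2i encodes Clr-g, the ligand read by NKR-P1F. It had 20.8, 25.0, 24.3, 26.4 and 27.1 CPM in GFP high libraries 1 to 5 and 19.2, 15.8, 17.9, 11.3 and 12.7 CPM in GFP low. The groups did not overlap, although GFP high library 1 and GFP low library 1 were only 1.08-fold apart. The means were 24.7 ± 2.47 and 15.4 ± 3.36 CPM and the log2 fold change was 0.68 ± 0.16. The spread in GFP high, a coefficient of variation of 9.98%, was the smallest among the 5 tested genes in either group. The difference was 0.43 within libraries 1 to 3 and 1.14 within libraries 4 and 5, where the pair ratios were 2.33 and 2.14.

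Clec2g, a further CLEC2 family gene, had 2 counts in GFP high library 4, 1 count each in GFP low libraries 2 and 4, and 0 elsewhere. The window of its start printed above shares 22 bases with that of Clec2d, which had 47 to 220 counts per library.

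**Figure D1:**
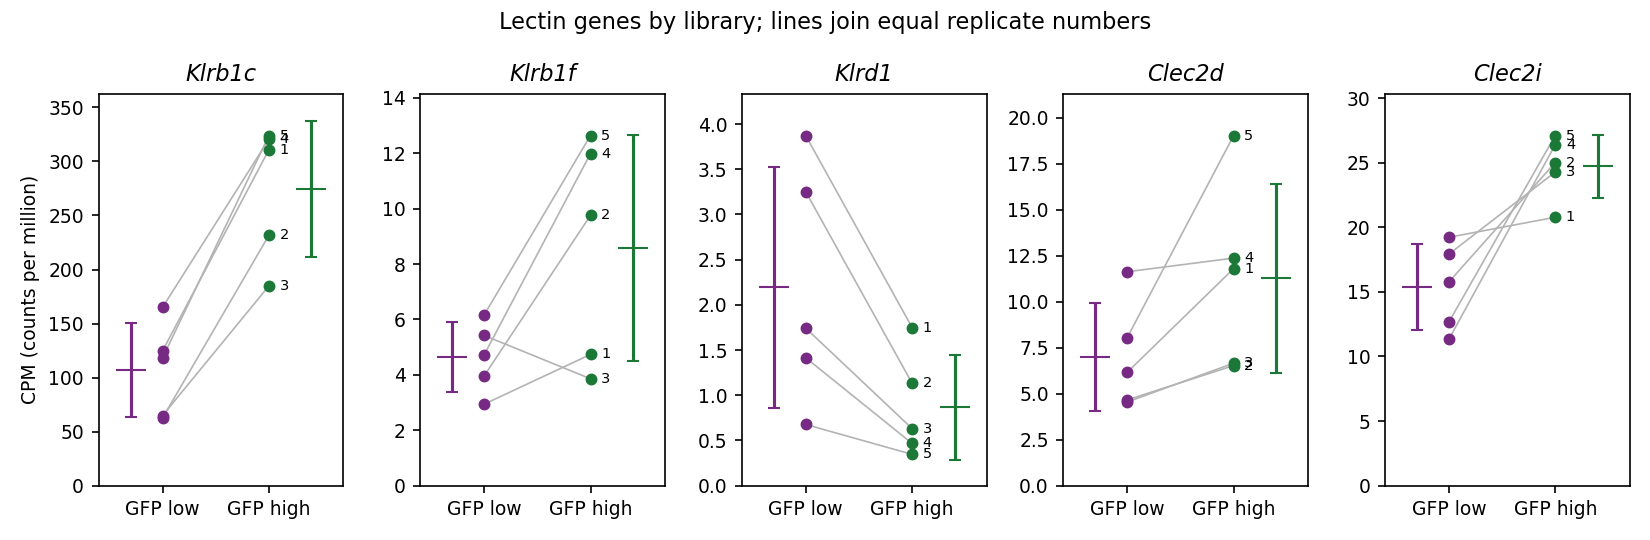
Level in CPM of the 5 lectin genes that were tested, in each GFP low (purple) and GFP high (green) library; grey lines join libraries of equal number, printed at the right, and bars give mean ± SD (n = 5). Klrb1c and Clec2i do not overlap between groups, and Klrd1 is the gene that is lower in GFP high in all 5 pairs.

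Per kilobase of exon, which allows genes to be compared, Klrb1c had the highest level, 92.7 ± 21.2 CPM per kb in GFP high and 36.1 ± 14.7 in GFP low. Clec2d (9.30 ± 4.24 and 5.78 ± 2.43) and Clec2i (7.95 ± 0.793 and 4.94 ± 1.08) followed, and their ranges overlapped with each other in both groups. Klrb1f was next (4.25 ± 2.01 and 2.29 ± 0.619), below every Clec2i library of its group. Klrd1 was lower (0.676 ± 0.451 and 1.71 ± 1.04), and in GFP low its range overlapped that of Klrb1f. Clec2g and Klrk1, at or under 2 counts per library, had means of 0.0109 and 0.00876 CPM per kb in GFP high. Only the level of Klrb1c was above all libraries of every other gene in both groups.

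**Figure D2:**
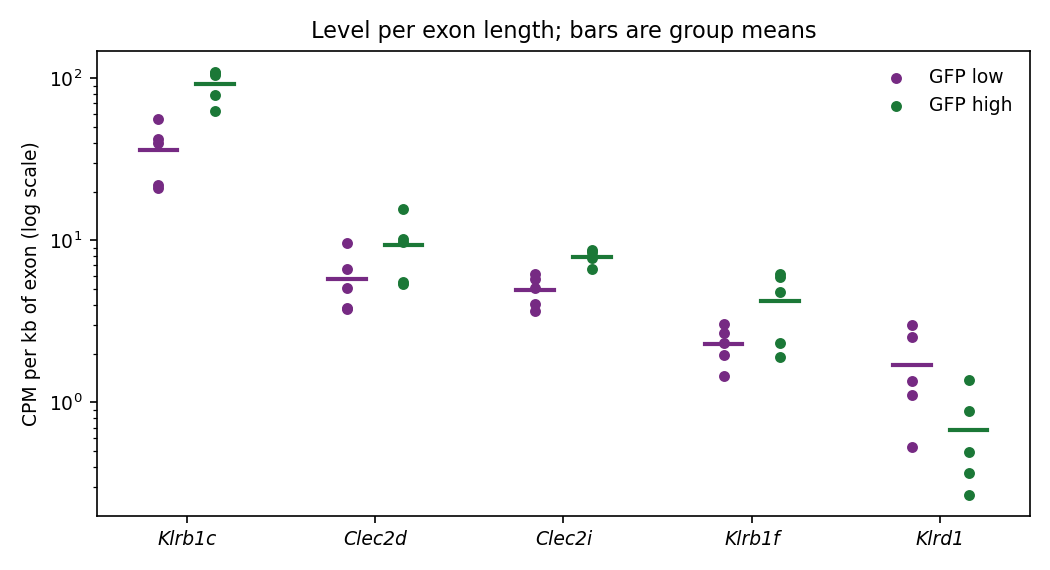
CPM per kb of exon on a log axis for the 5 tested lectin genes in each library, with bars at the group means (n = 5 per group). Klrb1c lies above the other 4 genes in both groups, and Clec2g and Klrk1, with at most 2 counts per library, are not drawn.

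Of the 7 genes, 5 passed the filter on low counts, and in 2 of these, Klrb1c and Clec2i, all GFP high libraries lay above all GFP low libraries. Among all 12772 genes tested, 7.92% lay wholly higher and 12.6% wholly lower in GFP high. Since this contrast was used to choose the genes, nothing is read from that count, and no count of test calls is given for them. For the genes outside the chosen 7 that follow, the background is that 12.0% of all genes tested were higher and 15.4% lower at an adjusted p under 0.05 (edgeR quasi-likelihood test, Benjamini-Hochberg adjustment). With the replicate block these shares were 20.7% and 21.0%.

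Lectin genes of the same cluster outside the chosen 7 were counted next. Of 24 other NK complex receptor genes counted by the authors, 3 were tested, of which 2 were higher and 1 lower in GFP high. The pseudogene Klrb1-ps1 rose most, with 196, 125, 107, 62 and 92 counts across GFP high libraries 1 to 5, against 21, 9, 0, 9 and 25 across GFP low. Its mean was 9.10 ± 3.61 CPM against 0.908 ± 0.691 CPM, a log2 fold change of 3.28 ± 0.56 (edgeR adjusted p = 0.00129), and the groups did not overlap. Klrb1, another NKR-P1 gene, rose by 0.86 ± 0.25 (edgeR adjusted p = 0.0242). It did not pass without GFP low library 4 (0.78) or 5 (0.81), without the count filter (0.88), or in replicates 1 to 3 (0.81) or 4 and 5 (1.002) alone. With the replicate block it passed (edgeR adjusted p = 0.0199).

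Klra1, which encodes the class I receptor Ly49A, fell by 1.89 ± 0.28 on the log2 scale (edgeR adjusted p = 0.00047). It had 24, 16, 34, 18 and 14 counts across GFP high, against 88, 122, 52, 66 and 76 across GFP low, without overlap. Its value was -1.82 within libraries 1 to 3 and -1.99 within libraries 4 and 5, and for Klrb1-ps1 these values were 3.88 and 2.37. The other 21 receptor genes were not tested, of which 13 had 0 counts in all libraries and none had more than 6 in any. They include the Klrc genes, whose NKG2 products pair with CD94. Klrc2 and Klrc3 had 0 counts throughout and Klrc1 had 4 counts in GFP high library 3 only.

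Of 13 other CLEC2 and neighbouring CLEC genes 3 were tested, and all 3 were higher. Cd69, an early activation antigen of lymphocytes, had a mean of 1073 ± 428 CPM in GFP high against 562 ± 241 CPM in GFP low. It rose by 0.93 ± 0.29 (edgeR adjusted p = 0.0332) and was higher in 5 of 5 pairs. This call was lost without GFP high library 1 (0.72) or 3 (0.92) or GFP low library 2 (0.89), 4 (0.83) or 5 (0.84). With the replicate block Cd69 passed, at 0.94 ± 0.05 (edgeR adjusted p = 9.36e-08). The Clec2f pseudogene, with 47 to 109 counts in GFP high against 21 to 33 in GFP low, rose by 1.37 ± 0.30 (edgeR adjusted p = 0.00499). In replicates 4 and 5 alone it did not pass (1.01). Clec12a, an inhibitory receptor of myeloid cells, rose by 2.07 ± 0.41 (edgeR adjusted p = 0.00287), from 4 to 18 counts in GFP low to 34 to 78 in GFP high. The 10 genes not tested, Clec2e and Clec2h among them, had at most 8 counts in any library.

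The chromosome 6 interval from Klrb1a to Klra1 holds 92 annotated genes, of which 19 were tested. Of the 14 tested besides the chosen ones 8 were higher, 1 lower and 5 did not pass, with a median log2 fold change of 0.74. The median of all genes tested was 0.03. The lower gene is Klra1, at the far end of the interval. Klra1 and the higher genes Klrb1, Klrb1-ps1, Clec2f, Cd69 and Clec12a were already counted in the lectin lists above. Outside the lectin lists, the long noncoding RNA 2310001H17Rik, next to Clec2d, rose (0.998 ± 0.14, edgeR adjusted p = 0.000247). So did the pseudogenes Gm8774 (0.85 ± 0.23, edgeR adjusted p = 0.0169) and BC064078 (0.63 ± 0.21, edgeR adjusted p = 0.0415). The call of Gm8774 was lost in replicates 1 to 3 alone (0.85). That of BC064078 was lost without GFP high library 4 (0.54) or 5 (0.54) or GFP low library 1 (0.60), 2 (0.56) or 3 (0.53). With the replicate block BC064078 passed (edgeR adjusted p = 0.00049). BC035044 had 0.19 ± 0.11 (edgeR adjusted p = 0.210) and passed with the replicate block (edgeR adjusted p = 0.00968). Its span, on the minus strand, holds Gm8774 and overlaps the span of Clec2i, though no exon bases of Clec2i overlap those of another gene. Gabarapl1 had 0.11 ± 0.12 (edgeR adjusted p = 0.519).

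**Figure D3:**
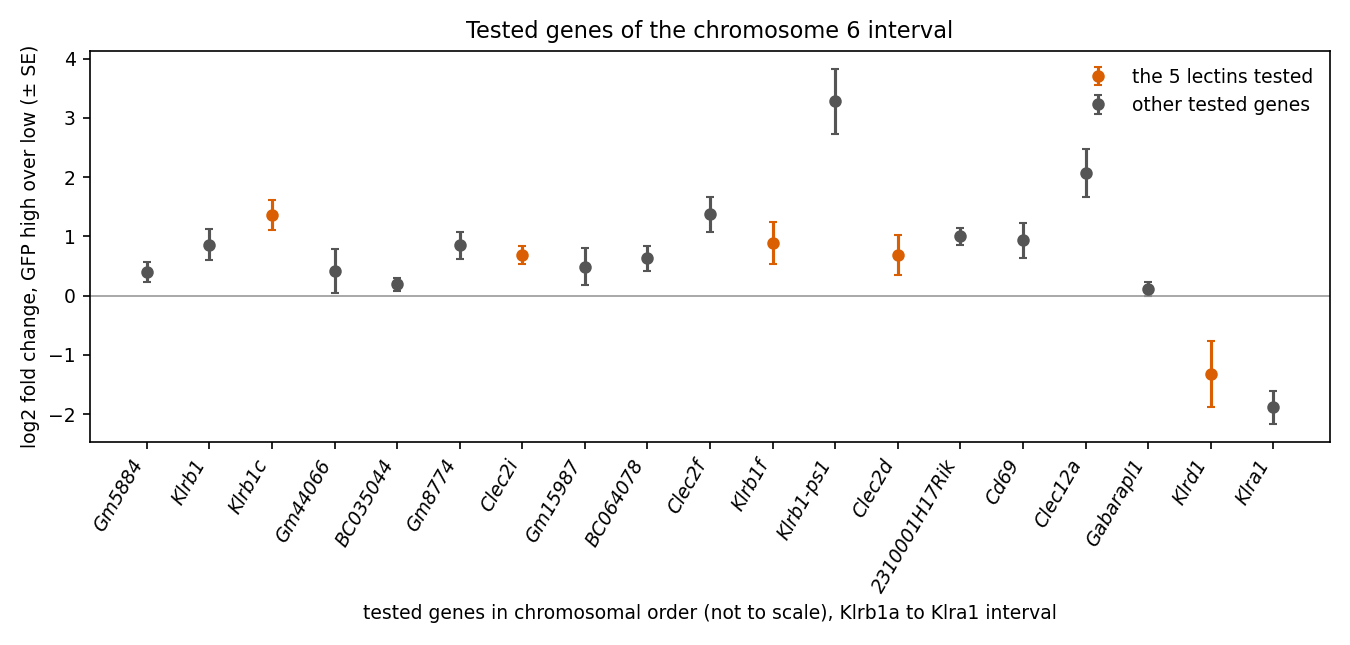
Log2 fold change, GFP high over GFP low (± SE), of the 19 tested genes of the chromosome 6 interval in chromosomal order, not to scale; orange marks the 5 chosen lectins that were tested. Genes from Gm5884 to Gabarapl1 lie above 0, whereas Klrd1 and Klra1 at the end of the order lie below it.

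The signalling partners of these receptors did not move in 1 direction. Of 16 adaptor and proximal signalling genes 13 were tested, of which 3 were higher, 2 lower and 8 did not pass. Fcer1g, the adaptor used by NKR-P1C, had 247, 318, 402, 512 and 387 counts across GFP high libraries 1 to 5, against 64, 64, 78, 140 and 125 across GFP low. It rose by 2.03 ± 0.27, from 7.23 ± 2.75 to 29.5 ± 8.07 CPM (edgeR adjusted p = 0.000233), and the groups did not overlap. The lipid phosphatase gene Inpp5d rose by 0.35 ± 0.06 (edgeR adjusted p = 0.00188). The kinase gene Syk rose by 0.25 ± 0.08 (edgeR adjusted p = 0.0360), a call lost when any of 7 libraries was left out, namely GFP high 2 (0.24), 3 (0.25) or 4 (0.24) or GFP low 1 (0.24), 3 (0.21), 4 (0.26) or 5 (0.27).

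The related kinase gene Zap70 fell by 1.31 ± 0.20 on the log2 scale (edgeR adjusted p = 0.000637), with 17.2 ± 5.92 CPM in GFP high against 42.7 ± 3.40 CPM in GFP low. The SRC family kinase gene Lck fell by 1.55 ± 0.50 (edgeR adjusted p = 0.0390). This call was lost without GFP high library 1 (-1.36), 2 (-1.58) or 3 (-1.44) or GFP low library 3 (-1.53), 4 (-1.35) or 5 (-1.26), and in replicates 1 to 3 alone (-1.17). Tyrobp, the adaptor DAP12, had 0.37 ± 0.27 (edgeR adjusted p = 0.333) and Hcst, an adaptor of NKG2D, had 0.04 ± 0.31 (edgeR adjusted p = 0.938). With the replicate block the phosphatase gene Ptpn6 (0.22, edgeR adjusted p = 0.00672) also passed as higher and the kinase gene Fyn (-0.17, edgeR adjusted p = 0.0294) as lower. Syk and Lck stayed past the threshold with the block (edgeR adjusted p = 0.00685 and 0.00899).

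Ligand genes of NKG2D and CD94 were counted as well. Of 6 with a row of counts, H60c had 0 counts in all libraries and 5 were tested, of which 1 was higher, 2 lower and 2 did not pass. Ulbp1, which encodes the NKG2D ligand MULT1, fell by 0.95 ± 0.19 on the log2 scale, with 20.6 ± 5.16 CPM in GFP high against 39.6 ± 9.61 CPM in GFP low (edgeR adjusted p = 0.00318). The retinoic acid early transcript gene Raet1d fell by 1.04 ± 0.27 (edgeR adjusted p = 0.0133), though not in replicates 4 and 5 alone (-0.53). H2-T23, which encodes Qa-1, the ligand of the CD94 and NKG2 pairs, rose by 0.54 ± 0.11, with 258 ± 37.0 CPM in GFP high against 177 ± 18.1 CPM in GFP low (edgeR adjusted p = 0.00287). Raet1e had -0.46 ± 0.25 (edgeR adjusted p = 0.195) and passed with the replicate block (edgeR adjusted p = 0.0396). H60b had -0.14 ± 0.27 (edgeR adjusted p = 0.736).

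**Figure D4:**
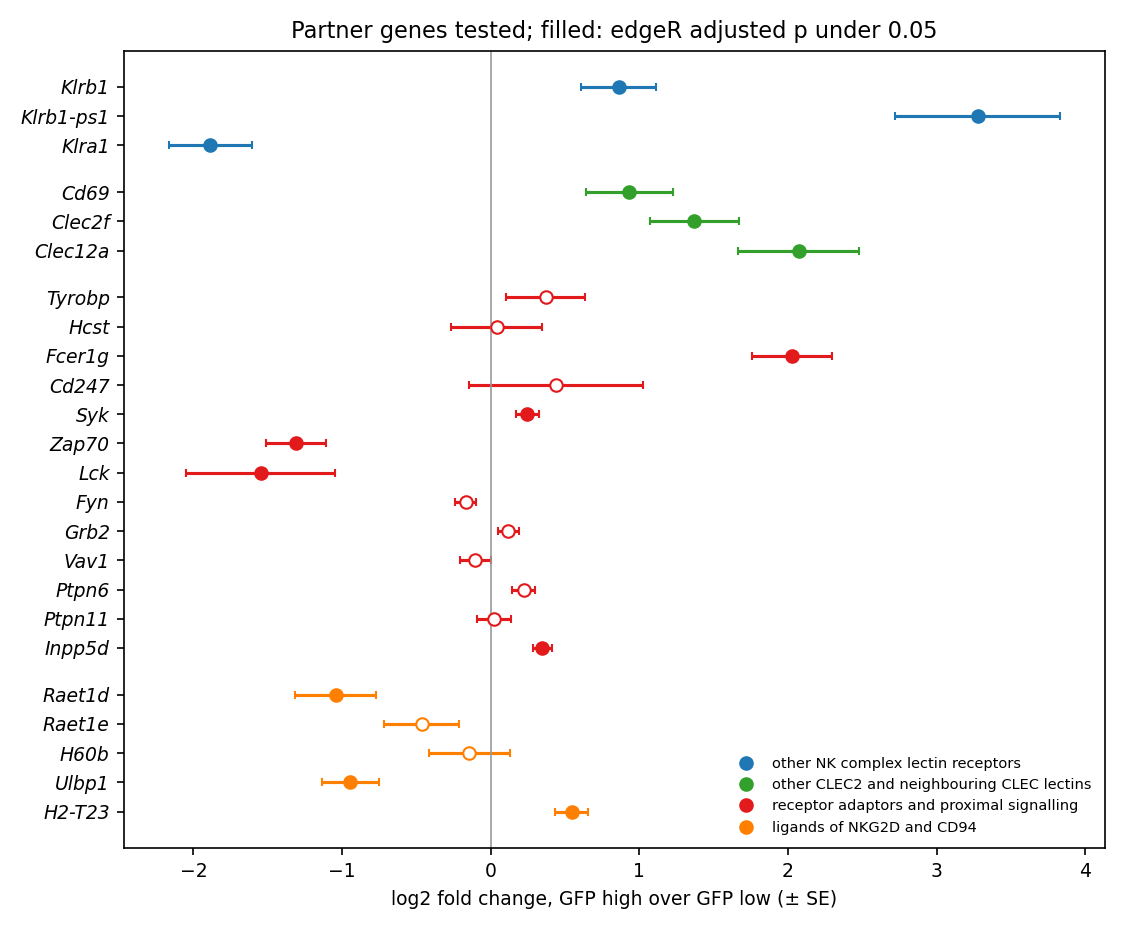
Log2 fold change, GFP high over GFP low (± SE), of the tested receptor, CLEC, adaptor and ligand genes outside the chosen 7; filled points have an edgeR adjusted p under 0.05. Klrb1-ps1, Clec12a and Fcer1g lie above 2, and Klra1, Lck, Zap70 and Raet1d lie below -1.

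Because Klrb1c is a marker of NK cells, NK cell genes were read in the same libraries. Of 20 NK markers that are not among the chosen genes 3 were tested, 1 of them higher and 2 not past the threshold. The higher one, Cd244a, encodes the receptor CD244, which other leukocytes also carry, and it rose by 1.67 ± 0.20 (edgeR adjusted p = 0.000122), with 143 ± 22.8 CPM in GFP high against 45.1 ± 14.5 CPM in GFP low. Prf1 had 1.55 ± 0.65 (edgeR adjusted p = 0.0939) with 0 to 30 counts per library and a higher level in 5 of 5 pairs. In pair 1 both libraries had 6 Prf1 counts, and only scaling set them apart (0.437 CPM in GFP high against 0.430 CPM in GFP low). Nfil3 had -0.32 ± 0.93 (edgeR adjusted p = 0.827). Eomes, Gzma, Fasl, Klra4 and Klra8 were at 0 counts in all 10 libraries, and Ncr1, Tbx21 and Il2rb never had more than 2. Nkg7, also not tested, had 14, 14, 6, 2 and 24 counts across GFP high libraries 1 to 5, against 2, 6, 0, 4 and 12 across GFP low, and was higher in 4 of 5 pairs. The 17 NK markers not tested summed to 10 to 35 counts per GFP high library and to 5 to 19 per GFP low library. Klrb1c had 2635 to 4265 and 669 to 2098. Those 17 are the markers below the count filter, so a low sum follows from that choice. All 20 markers, with Cd244a, Prf1 and Nfil3 included, summed to 118 to 170 CPM in GFP high against 29.0 to 67.6 CPM in GFP low.

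Some markers of other cells were higher in GFP high, while most of those tested did not pass in each list. Of 5 tested T and innate lymphoid markers 1 was higher, Tcf7 (0.59 ± 0.16, edgeR adjusted p = 0.0158; in replicates 1 to 3 alone 0.63, not past the threshold), with a summed list level of 64.4 to 87.1 CPM in GFP high against 45.8 to 62.1 CPM in GFP low. The largest part of that sum was Tcf7, with a mean of 56.3 CPM in GFP high against 37.3 CPM in GFP low. Of 6 plasmacytoid dendritic markers 2 were higher, Siglech (4.52 ± 0.65, 20 to 82 counts against 0 to 4) and Tcf4. Their list summed to 621 to 697 against 543 to 608 CPM. Most of this was Tcf4 (mean 338 against 284 CPM) and Irf8 (258 against 243 CPM), while Siglech had 3.70 against 0.154 CPM. Of 8 monocyte and granulocyte markers 3 were higher, Csf1r (2.14 ± 0.21), Fcgr3 (2.06 ± 0.51) and Ly6c2, and 5 were with the replicate block. Their list summed to 110 to 155 against 71.4 to 114 CPM, of which the largest part was Lyz2 (mean 67.9 against 52.6 CPM). Lyz2 did not pass without the block (edgeR adjusted p = 0.244). The mean of Csf1r was 26.1 CPM in GFP high against 5.92 CPM in GFP low. Of 4 erythroid markers 1 was higher, Hbb-bs, summing to 16.1 to 46.2 against 7.75 to 21.7 CPM, and 2 were with the block. The calls of Tcf4, Ly6c2 and Hbb-bs were each lost when any of 7 libraries was left out. Their log2 fold changes were 0.22 to 0.31, 1.003 to 1.35 and 0.86 to 1.39 over all 10 omissions. With the block these calls held (edgeR adjusted p = 0.00457, 0.0199 and 0.0177). Of 13 B-lineage markers 4 were higher and 0 lower, Igll1, Ebf1, Cd79a and Rag1, and 10 were higher with the block. The part of other cells in the values of Klrb1c and the other lectins was not tested.

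Over the 10 libraries, the named genes whose log2(CPM + 1) followed that of Klrb1c most closely were P2ry13 (Pearson r = 0.987), Tmem255a (0.981), Prkx (0.978), Rag1 (0.976) and Mpv17 (0.976), of 9364 genes ranked. These libraries form 2 groups and share depth and pairing, so the values are a description. P2ry13, an ADP receptor, had a mean of 60.5 CPM in GFP high against 16.0 CPM in GFP low. After each group's mean was subtracted, the closest were Zfp626 (0.962), Prkx (0.958), P2ry13 (0.956), Zfp455 (0.955) and Akr1e1 (0.954). Prkx and P2ry13 were in both lists. Akr1e1, an aldo-keto reductase gene, had a mean of 19.9 CPM in GFP high against 19.0 CPM in GFP low, so it followed Klrb1c within the groups and not between them.

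**Figure D5:**
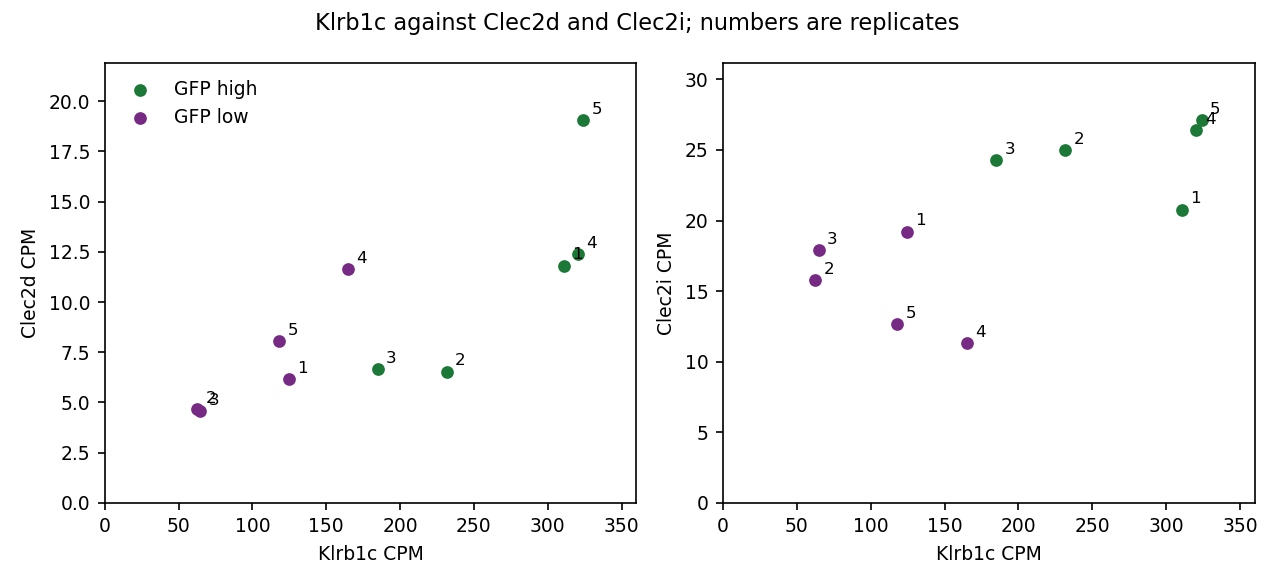
Level of Clec2d (left) and Clec2i (right) against that of Klrb1c, in CPM, for each library, with replicate numbers beside the points. Within each group the libraries with more Klrb1c, 1, 4 and 5, also have more Clec2d than libraries 2 and 3, whereas Clec2i separates the groups and in GFP low is lowest in library 4, which has the most Klrb1c.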

How the data were processed

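RNA of 10 libraries was sequenced after SMART-Seq v4 amplification of polyadenylated RNA, per the labels' protocols. Gene counts were deposited by the authors as raw counts per Ensembl gene, and STAR, featureCounts, DESeq2 and mm10 are named in the submitters' processing notes, with no versions. Their annotation release and strand setting are not given in the sources used here. GENCODE M21 named 55480 of 55573 IDs (99.8%). Counts of 1 to 20 were even in 67.2% to 69.8% of cases, and the cause was not tested. If both mates of a pair were counted, counts exceed the fragments behind them. No column was left out.

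The count model was fitted by edgeR 4.0.16 under R 4.3.3 (filterByExpr on the 2 groups, TMM, quasi-likelihood test, no covariate, Benjamini-Hochberg adjustment over 12772 genes, threshold 0.05). CPM used TMM-scaled library sizes, and SEs came from the fitted weights. The common biological coefficient of variation was 0.249. The script was tested on simulated counts. Alternatives were a replicate block, DESeq2 1.42.0, its size factors, no count filter, each library left out, and replicates 1 to 3 or 4 and 5 alone. Deviations from group means of same-numbered libraries correlated at 0.321 to 0.450 (median 0.433), against -0.377 to 0.418 (median -0.258) for different numbers. The highest of the latter were between libraries 4 and 5, so part of the pattern follows the sets 1 to 3 and 4 to 5. Numbers were taken as pairs since all 5 correlations were above 0.1. Some different-numbered libraries of the same set were above 0.1 too, so this limit cannot tell pairs from sets. Each library did correlate most with the one of its own number.

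The members and gene lists were chosen with earlier results of these data known. Named were the 7 genes, of each list the 3 tested genes of lowest p and genes past the threshold up to 6, and the 5 genes closest to Klrb1c by each measure with a mean of at least 5 CPM, without predicted genes, clones and pseudogenes. Neighbours in the interval and single markers at 0 were named after their values were seen.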

Additional observations from a re-analysis of the deposited data

Results flagged for a closer look

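In 170 groups of 5 libraries (85 genes), 10 had 1 library far from the other 4, judged by its gap to the nearest divided by the group's range (over 0.71). Chance flags about 1 in 20 groups, and the flags were not tested further. Of the chosen 7 lectins, Clec2g is among them, since GFP high library 4 (0.156 CPM, 2 counts) was the only one of its group above 0. Library 5 of GFP high was high for the myeloid receptor gene Clec12a (6.75 CPM) and library 4 for the phosphatase gene Ptpn11 (55.4 CPM). GFP high library 2 was high for the NKG2D ligand gene Ulbp1 (29.5 CPM), for Dntt, which encodes terminal transferase (1622 CPM), and for the noncoding gene Gm44066 near Klrb1c (3.05 CPM). GFP high library 3 was high for the globin gene Hba-a2 (6.03 CPM). In GFP low, library 4 was high for H2-T23 (208 CPM, barely past the limit), and library 1 was high for Ebf1 (1510 CPM) and low for Irf8 (174 CPM).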

How the results depend on the processing

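No value changed sign under any alternative run for the 5 tested lectins. With the replicate block 2645 genes were higher (1538 without it), and the block or pairing gave 1.42 for Klrb1c. The Klrd1 log2 fold change was -1.33, and -1.72 to -1.02 with 1 library left out. Its mean paired difference of log2(CPM + 1), -0.72, became -1.08 with a pseudocount of 0.25. For Clec2i replicates 4 and 5 alone gave 1.14 against 0.68. The cause of these shifts was not tested. Klrd1 rests on 4 to 54 counts per library, and Klrk1 and Clec2g, at 0 to 2 counts, were not measurable at this depth. DESeq2 and the replicate block each ended 0 of the calls of named genes, and no count filter ended 4.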
